A study of Homo sapiens with 4 samples.

Results

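The genes examined were 9 known transcriptional targets of the stress-induced factor p53: MDM2, TP53I3, TP53INP1, SESN1, SESN2, ZMAT3, GDF15, FDXR and RRM2B. They were taken by gene name from the deposited expression tables, in which they are 9 of 58735 listed genes. Their RNA was measured by RNA-seq in HaCaT cells (written HaCAT in the labels), an established line of human keratinocytes. Cells of the siControl group received the normal control siRNA and cells of the siALKBH5 group received siRNA against ALKBH5, an enzyme that removes the m6A mark from RNA. Each group held 2 libraries, and all cells shared the WT genotype of the labels, the same line and the same transfection reagent. The sample labels do not name which of the study's siRNAs against ALKBH5 was used, and no time after transfection is given with them. Whether the libraries of a group came from separate cultures is not stated. The p-values below rest on the spread between these libraries, in part pooled over genes, and that spread may be technical.

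p53 is a transcription factor that is held at a low level in unstressed cells and accumulates after DNA damage and other stress. It binds a response element made of adjacent copies of a short half-site, usually near the promoter or in the first intron of its target genes. MDM2 is the target that closes a feedback loop, since its protein ubiquitinates p53 and marks it for degradation. The other genes examined carry the response into metabolism, redox balance, nucleotide supply, RNA regulation and secretion. HaCaT cells are known to carry mutated p53 alleles, and many of these target genes are also driven by related factors such as p63 or by other stress pathways.

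The libraries held 16017502 to 18837807 counts on genes, and 15075 genes passed the expression filter, all 9 target genes among them. Levels are in CPM (counts relative to the TMM-scaled library size), and the groups were compared with the quasi-likelihood test of edgeR with Benjamini-Hochberg adjustment over all genes tested. A gene was called lower or higher in siALKBH5 at an adjusted p under 0.05. The targeted gene, ALKBH5, was counted 1512 and 1576 times in siControl but 956 and 816 times in siALKBH5, and its level was 55.5% of that in siControl. Of 12 keratinocyte markers all were tested. Their summed level ranged from 20201 to 20581 CPM in siControl and from 26043 to 26126 CPM in siALKBH5. KRT5, named after its values were seen, made up most of that difference, with means of 7034 CPM in siControl and 11248 CPM in siALKBH5. By call, 4 markers were higher and 4 lower (33.3% each, beside 19.3% and 17.3% of all genes tested). Without overlap, 5 lay above siControl and 7 below (32.8% and 33.5% of all genes tested). The summed levels were 18.7 to 18.9 and 17.4 CPM for 6 fibroblast markers (COL1A2, PDGFRA and PDGFRB at 0), 2.72 to 3.23 and 3.16 to 3.89 CPM for 4 melanocyte markers (TYR at 0), and 2.42 to 3.11 and 3.83 to 4.23 CPM for 4 immune markers. Of these lists 2, 1 and 1 markers were tested, and 1 fibroblast marker (LUM) was lower and 1 immune marker (CD14) higher, named here after their values were seen. The mitochondrial share of counts was 10.2% in siControl and from 9.63% to 9.64% in siALKBH5, and its part in the results below was not tested.

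After ALKBH5 knockdown, TP53I3, TP53INP1, MDM2 and ZMAT3 were lower, at 56.8% to 82.0% of the siControl level. SESN1, SESN2, GDF15, FDXR and RRM2B did not pass the test. That is 4 of 9 genes called lower (44.4%) and 0 called higher, where 17.3% of all genes tested were lower and 19.3% were higher. The 9 genes were chosen with earlier results of these data known, so these shares are not independent of the data. The count of 0 higher genes was the same with DESeq2, and 0 of the 9 genes were higher at an unadjusted p under 0.05 with edgeR. Over the 9 genes the log2 fold change had a median of -0.19, against -0.0081 over all genes tested. For 6 of the 9 genes the siALKBH5 libraries lay below the siControl libraries without overlap, which was so for 33.5% of all genes tested. None of the 9 reached a fold change of 2, which 1.30% of the genes tested did in the lower and 1.62% in the higher direction. Since whole cultures were sequenced, fewer cells that express a gene and less of its RNA per cell cannot be told apart.

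**Figure D1:**
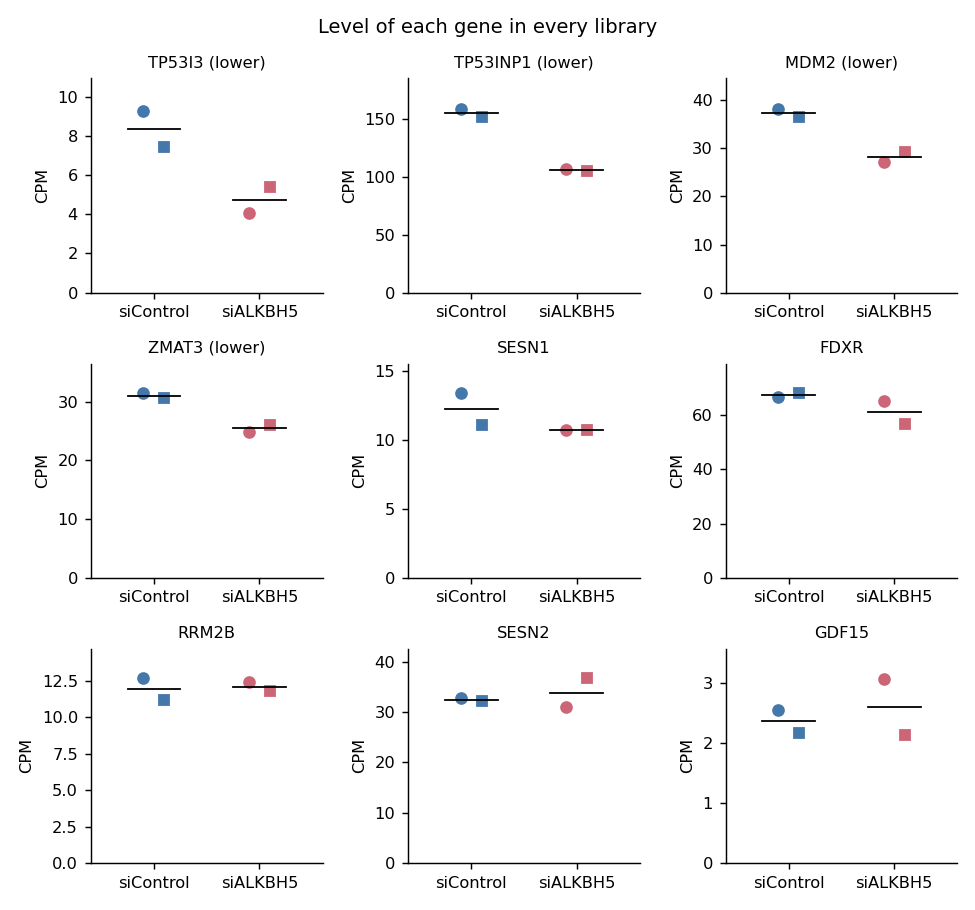
CPM (vertical axes, from 0) of the 9 p53 target genes in each library, with circles for replicate 1, squares for replicate 2 and a bar at the group mean. The 4 genes marked lower show no overlap between siControl and siALKBH5, and GDF15, at 2.13 to 3.05 CPM, has the fewest counts.

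TP53I3 (ENSG00000115129, chromosome 2 from 24077433 to 24085861, minus strand, GRCh38), also known as PIG3, encodes a quinone oxidoreductase-like enzyme linked to reactive oxygen production. It was counted 149 and 134 times in siControl and 76 and 89 times in siALKBH5. These counts correspond to 9.25 and 7.45 CPM in siControl and 4.07 and 5.41 CPM in siALKBH5, so the groups did not overlap. The mean was 8.35 ± 1.27 CPM (SD, n = 2) in siControl and 4.74 ± 0.95 CPM in siALKBH5, 56.8% of siControl. The log2 fold change was -0.82 (SE 0.17, 95% interval -1.17 to -0.47), with an adjusted p of 0.00028 by edgeR. Of the genes tested, 2.95% had a lower log2 fold change.

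TP53I3 is taken here as a candidate gene of the study. The study lists qPCR primers for it, although the paper's text does not name it. Candidates were picked for lower RNA after ALKBH5 knockdown in these libraries together with m6A peaks in the 3'UTR. The study then measured the candidates by qRT-PCR, and its text gives the result by name for PELI2 only. The call above is not independent of that choice. The study's cut asked for a fold change of 2, which TP53I3 over these 4 libraries, at 56.8% of siControl, did not reach. In replicate 1 the siALKBH5 level was 44.0% of siControl, with an exact 95% interval from 32.9% to 58.4% that covers counting error only. In replicate 2 it was 72.6%, with an interval from 54.9% to 95.7%. TP53I3 was thus lower in both replicates as paired by their labels, by more in replicate 1, and the intervals of the ratios overlapped. The size of each ratio depends on this pairing, and a difference between the replicates was not tested. Without TP53I3, 3 of the other 8 genes were called lower and their median log2 fold change was -0.16.

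The p53-responsive repeat of TP53I3, the sites of the study's qPCR primers and its 3'UTR motif are shown because TP53I3 is taken as a candidate gene of the study. The gene has 6 annotated transcripts in GENCODE 29. A run of pentamers, TGTCC or TGCCC, through which p53 is known to act on this gene, lies at chr2:24084343-24084417 on the minus strand. In the reference it is 75 bases long and holds 15 units, 6 of TGTCC and 9 of TGCCC. It falls in the 5'UTR in exon 1 of TP53I3-201 and in a noncoding exon of TP53I3-205, and in an intron of 1 other transcript. Repeat length in HaCaT cells was not measured here. The first 30 bases of the run in the reference were as follows.
TP53I3 repeat: tgccctgtcctgtcctgccctgccctgtcc

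The study's qPCR primers for TP53I3 were matched to these transcripts. The forward primer lies at chr2:24080959-24080978 and is found in 5 of the 6 transcripts. The reverse primer is found in 1, TP53I3-203, where its 23 bases join exon 3 to exon 4 across the exon at chr2:24079444-24079640, a 197-base exon which TP53I3-201 and TP53I3-202 contain. The product expected from TP53I3-203 is 174 bases long. The counts analysed here are summed over the whole gene and do not separate these transcripts.
forward primer: ggcacagctgctatccaact
reverse primer: agcatttgcttgtactttggtga

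The 3'UTR of TP53I3-202 has 146 bases, compared with a median of 1103 bases over the longest 3'UTRs of 19145 genes. The letters GGACN with any base but G at N, common contexts of m6A, were counted on the transcribed strand, and 80.4% of those genes hold at least 1 of them. TP53I3 holds 1, a GGACA in exon 6 of 6 at chr2:24077560-24077564, 15 bases into the 3'UTR. It is printed with its flanks and with the motif in capitals, as the study picked its candidates in part by m6A peaks in the 3'UTR. A match of these letters is a description and not a measured m6A site, and no m6A data were analysed here.
TP53I3 3'UTR: ggatggggcaGGACAggacgcggcc

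TP53INP1 (chromosome 8 from 94925972 to 94949411, minus strand) encodes a stress-induced nuclear protein that takes part in apoptosis and autophagy. It was the most abundant of the 9 genes, and its counts were 2548 and 2722 for siControl but 1996 and 1733 for siALKBH5. Its level was 158 and 151 CPM in siControl and 107 and 105 CPM in siALKBH5, 2 pairs of values that lie close together and far apart from each other. The mean fell from 154.7 ± 4.84 CPM (SD, n = 2) to 106.1 ± 1.10 CPM, 68.6% of siControl. Its log2 fold change was -0.54 (SE 0.039, 95% interval -0.62 to -0.46), with an adjusted p of 2.8e-13 by edgeR. The ratio was nearly the same in both replicates, -0.57 and -0.52 on the log2 scale, and TP53INP1 had the narrowest interval of the 9 genes.

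MDM2 (chromosome 12 from 68808176 to 68850686, plus strand), the p53 ubiquitin ligase of the feedback loop, was counted 615 and 658 times in siControl, and 507 and 481 times in siALKBH5. Its level of 38.2 and 36.6 CPM in siControl was above the 27.1 and 29.2 CPM in siALKBH5 in every library. The mean fell from 37.4 ± 1.13 CPM (SD, n = 2) to 28.2 ± 1.47 CPM, 75.4% of siControl. The log2 fold change of MDM2 was -0.41 (SE 0.075, 95% interval -0.56 to -0.26), with an adjusted p of 4.3e-05 by edgeR. Of its exon bases, 9.21% also belong to exons of other genes, and how strand was set in the counting is not given in the sources used here. That share was 7.09% for SESN1 and 3.46% for TP53I3, in both cases with a gene on the opposite strand, and 0 for the rest of the genes examined.

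ZMAT3 (chromosome 3 from 179017223 to 179072279, minus strand), also known as Wig-1, encodes a zinc finger protein that binds RNA. Counts of ZMAT3 were 506 and 552 for siControl and 465 and 428 for siALKBH5, or 31.4 and 30.7 CPM against 24.9 and 26.0 CPM without overlap. Its mean level fell to 82.0% of siControl, a log2 fold change of -0.29 (SE 0.079, 95% interval -0.45 to -0.13) with an adjusted p of 0.0041 by edgeR. The call was the weakest of the 4, with an adjusted p of up to 0.047 when 1 library was left out.

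**Figure D2:**
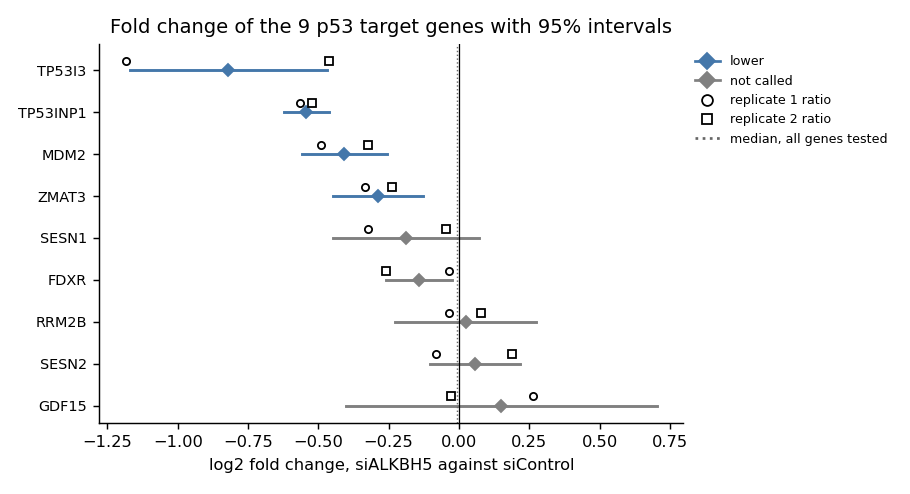
log2 fold change of siALKBH5 against siControl (horizontal axis) for each of the 9 p53 target genes, as a diamond with its 95% interval from edgeR, with open circles for the ratio within replicate 1 and open squares for that within replicate 2. The 4 genes called lower lie left of 0 in both replicates, and the intervals of SESN1, RRM2B, SESN2 and GDF15 include 0.

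The sestrins restrain mTORC1 signalling and limit oxidative stress, and SESN2 is also known as a target of the stress factor ATF4. SESN1 (chromosome 6 from 108986437 to 109094819, minus strand) was counted 216 and 200 times in siControl, and 200 and 177 times in siALKBH5. Its level of 13.4 and 11.1 CPM in siControl was above the 10.7 and 10.8 CPM in siALKBH5, but the siControl libraries lay farther apart than the lower of them lay from siALKBH5. The log2 fold change was -0.19 (SE 0.13, 95% interval -0.45 to 0.071) with an adjusted p of 0.27 by edgeR. It was -0.048 without siControl replicate 1 and -0.32 without siControl replicate 2, and was not called in either case. SESN2 (chromosome 1 from 28259527 to 28282491, plus strand) was counted 528 and 580 times in siControl, and 579 and 605 times in siALKBH5, or 32.8 and 32.2 CPM against 31.0 and 36.8 CPM. The siControl values lay between the siALKBH5 values, and the log2 fold change of 0.056 had a 95% interval from -0.10 to 0.22 with an adjusted p of 0.63 by edgeR.

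FDXR (chromosome 17 from 74862497 to 74873031, minus strand) encodes ferredoxin reductase, which passes electrons to the mitochondrial ferredoxins for steroid and iron-sulfur cluster synthesis. Counts of FDXR were 1077 and 1227 for siControl and 1219 and 937 for siALKBH5. Its level was 66.8 and 68.2 CPM in siControl and 65.3 and 56.9 CPM in siALKBH5, where the library of replicate 2 was the low one. The log2 fold change of -0.14 (SE 0.058, 95% interval -0.26 to -0.024) had an adjusted p of 0.054 by edgeR and was not called. Without the siALKBH5 library of replicate 1 it was -0.24 with an adjusted p of 0.0027, and without that of replicate 2 it was -0.047 and not called. FDXR was also called lower with all 4 libraries when only library size was scaled (-0.16, adjusted p of 0.029 by edgeR) and with the replicate number as a block (-0.14, adjusted p of 0.020), so its call turned on these settings.

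RRM2B (chromosome 8 from 102204502 to 102239118, minus strand) encodes the p53-inducible small subunit of ribonucleotide reductase, which supplies deoxynucleotides outside S phase. It was counted 205 and 201 times in siControl and 232 and 194 times in siALKBH5. The levels of 12.7 and 11.2 CPM in siControl and 12.4 and 11.8 CPM in siALKBH5 overlapped fully, and the log2 fold change of 0.023 had a 95% interval from -0.23 to 0.27 (adjusted p of 0.91 by edgeR). GDF15 (chromosome 19 from 18374731 to 18389176, plus strand) encodes a secreted stress cytokine of the TGF-beta superfamily. Counts of GDF15 were 41 and 39 for siControl and 57 and 35 for siALKBH5, or 2.54 and 2.17 CPM against 3.05 and 2.13 CPM. Its siALKBH5 libraries were the highest and the lowest of the 4, and the 95% interval of its log2 fold change of 0.15 ran from -0.40 to 0.70 (adjusted p of 0.71 by edgeR). With these counts, no change of GDF15 within that interval can be excluded.

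**Figure D3:**
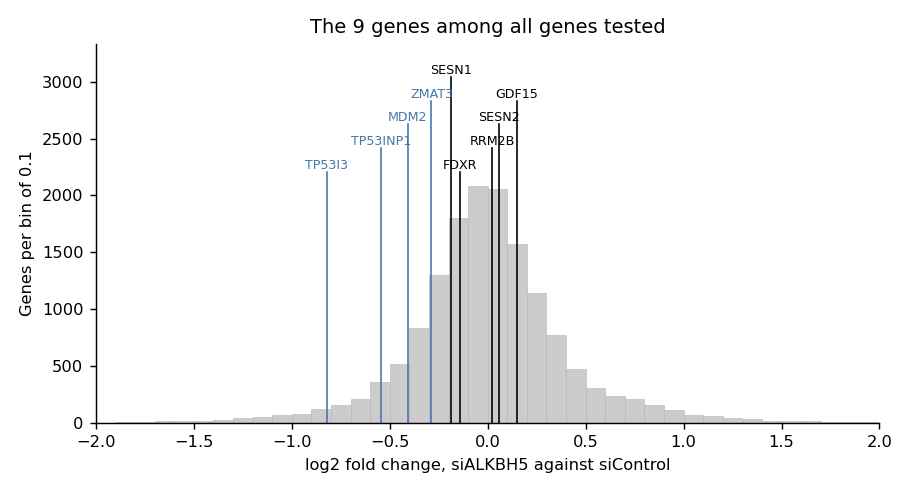
Number of genes tested (vertical axis) per bin of log2 fold change of siALKBH5 against siControl (horizontal axis, ending at 2 on either side), with lines at the 9 p53 target genes, blue for those called lower. TP53I3, at -0.82, lies in the lower tail of the distribution, and of the 9 genes RRM2B and SESN2 lie nearest its middle.

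The levels of the 9 genes were compared with each other only per kilobase of listed gene length. That length takes in all annotated exon bases of a gene, 13284 for MDM2 with 34 transcripts and 2312 for TP53I3 with 6. It is not the length of the transcripts expressed in these cells, which was not measured. The order of the genes, and a change of place in it, depend on these lengths. In siControl the order was TP53INP1 at 27.3 CPM per kilobase, FDXR at 18.8, SESN2 at 9.41, TP53I3 at 3.61, ZMAT3 at 3.22, MDM2 at 2.81, SESN1 at 2.39, RRM2B at 2.15 and GDF15 at 1.13. Libraries of TP53I3 and ZMAT3 overlapped, as did those of SESN1 and RRM2B, and the other neighbours did not. In siALKBH5, TP53INP1 (18.7 CPM per kilobase), FDXR, SESN2 and ZMAT3 led in this order. RRM2B, MDM2, SESN1 and TP53I3 followed at 2.18, 2.12, 2.10 and 2.05 CPM per kilobase, where each neighbour overlapped the next, and GDF15 was last at 1.24. By its mean TP53I3 moved from place 4 to place 8 of 9. Its siALKBH5 libraries, at 1.76 and 2.34 CPM per kilobase, lay on either side of those of RRM2B, MDM2 and SESN1, so its place among these is not settled.

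The paralogs and partners of the 9 genes show where a gene moved beside its relatives. MDM4, the MDM2 paralog that inhibits p53 without degrading it, was lower with MDM2 (log2 fold change -0.34, adjusted p of 0.00043 by edgeR). The MDM2 to MDM4 ratio per kilobase was 0.76 ± 0.092 (SD, n = 2) in siControl and 0.71 ± 0.024 in siALKBH5, a difference within the spread of the siControl libraries. CRYZ, the quinone oxidoreductase related to TP53I3, fell by 0.49 on the log2 scale (adjusted p of 4.5e-06 by edgeR). Its levels were 38.2 and 36.5 CPM in siControl and 25.0 and 28.2 CPM in siALKBH5. Of the sestrins SESN3 was lower, at 128 CPM in both siControl libraries and 95.7 and 91.8 CPM in siALKBH5 (log2 fold change -0.45, adjusted p of 9.1e-11 by edgeR). Whether SESN3 differed in its change from SESN1 and SESN2 was not tested.

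Ribonucleotide reductase pairs the large subunit RRM1 with a small subunit, which is RRM2 in S phase or RRM2B otherwise. RRM1 was higher after ALKBH5 knockdown, from 102 and 107 CPM to 165 and 164 CPM (log2 fold change 0.66, adjusted p of 1.6e-15 by edgeR). RRM2 was also higher, from 9.74 and 11.6 CPM to 21.3 and 22.4 CPM (log2 fold change 1.03, adjusted p of 3.6e-09 by edgeR). The 95% interval of RRM2, from 0.80 to 1.25, lies wholly above that of RRM2B, although the difference itself was not tested. Per kilobase of listed length, the ratio of RRM2 to RRM2B was 0.80 and 1.08 in siControl and 1.78 and 1.98 in siALKBH5. By that length the S phase subunit was the more abundant one in both siALKBH5 libraries.

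TP53INP2, the paralog of TP53INP1 with a role in autophagy, had a log2 fold change of -0.20 (adjusted p of 0.067 by edgeR) and was not called. FDX1, a ferredoxin that receives electrons from FDXR, had a log2 fold change of 0.033 with a 95% interval from -0.12 to 0.19 and was not called. FDX2, ZMAT1 and GFRAL, the receptor of GDF15, were not tested for lack of counts, and ZMAT1 and GFRAL were at 0 in every library.

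**Figure D4:**
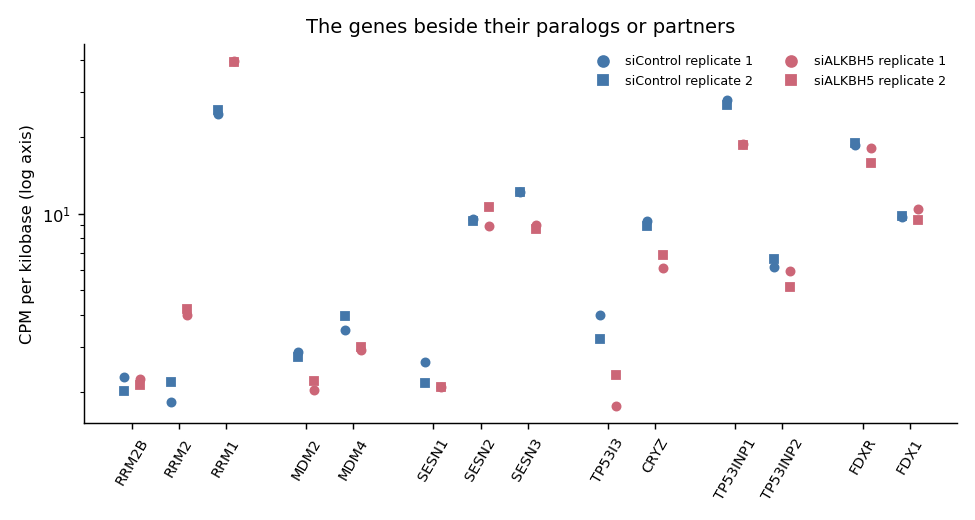
CPM per kilobase of listed gene length (vertical log axis) of 7 of the p53 target genes beside their tested paralogs or partners, with blue for siControl, red for siALKBH5, circles for replicate 1 and squares for replicate 2. RRM2 and RRM1 are higher in siALKBH5 while RRM2B overlaps between groups, and MDM4, CRYZ and SESN3 are lower.

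A further list of 31 known p53 targets was examined in the same fit, of which 28 were tested, and 10 were lower and 3 higher. These are 35.7% and 10.7% of the genes tested on that list, beside 17.3% and 19.3% of all genes tested, and their median log2 fold change was -0.13. This list too was chosen with earlier results of these data known, so it is no independent check of the genes above. The 5 lower genes with the greatest log2 fold change were TRIAP1, an inhibitor of apoptosis (-0.45), BTG2, an antiproliferative cofactor of mRNA decay (-0.44), PLK2, a stress-regulated polo-like kinase (-0.36), RPS27L, a ribosomal protein paralog (-0.34), and KITLG, the ligand of the KIT receptor (-0.32). BTG2 was the most abundant of these, at 390.6 ± 6.32 CPM (SD, n = 2) in siControl and 288.7 ± 3.95 CPM in siALKBH5. The call of RPS27L was lost in 3 of 10 alternative settings.

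The 3 genes that rose were CDKN1A, POLH and NINJ1. CDKN1A encodes p21, the cyclin-dependent kinase inhibitor that mediates the p53 cell cycle arrest. Its counts were 3260 and 3519 for siControl and 4538 and 3881 for siALKBH5, and its level rose from 199.0 ± 4.77 CPM (SD, n = 2) to 239.4 ± 5.04 CPM (log2 fold change 0.27, adjusted p of 3.0e-08 by edgeR). CDKN1A and MDM2, both direct p53 targets, thus moved in opposite directions. Their ratio was 23.1 and 23.3 in siControl and 39.0 and 35.1 in siALKBH5, where the size of each value depends on the listed gene lengths. POLH, a translesion DNA polymerase (log2 fold change 0.29, adjusted p of 0.036 by edgeR), lost its call in 7 of 10 alternative settings. NINJ1, a membrane protein of plasma membrane rupture (log2 fold change 0.20, adjusted p of 0.014 by edgeR), lost it in 3.

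Among the apoptotic targets, PMAIP1, which encodes NOXA, was lower at 80.2% of siControl (log2 fold change -0.32, adjusted p of 0.00040 by edgeR). BBC3, which encodes PUMA, BAX and the death receptor FAS did not pass the test. Their log2 fold changes were 0.090, 0.0084 and 0.10, and FAS, at 3.56 ± 0.40 CPM (SD, n = 2) in siControl, had a 95% interval from -0.34 to 0.54.

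**Figure D5:**
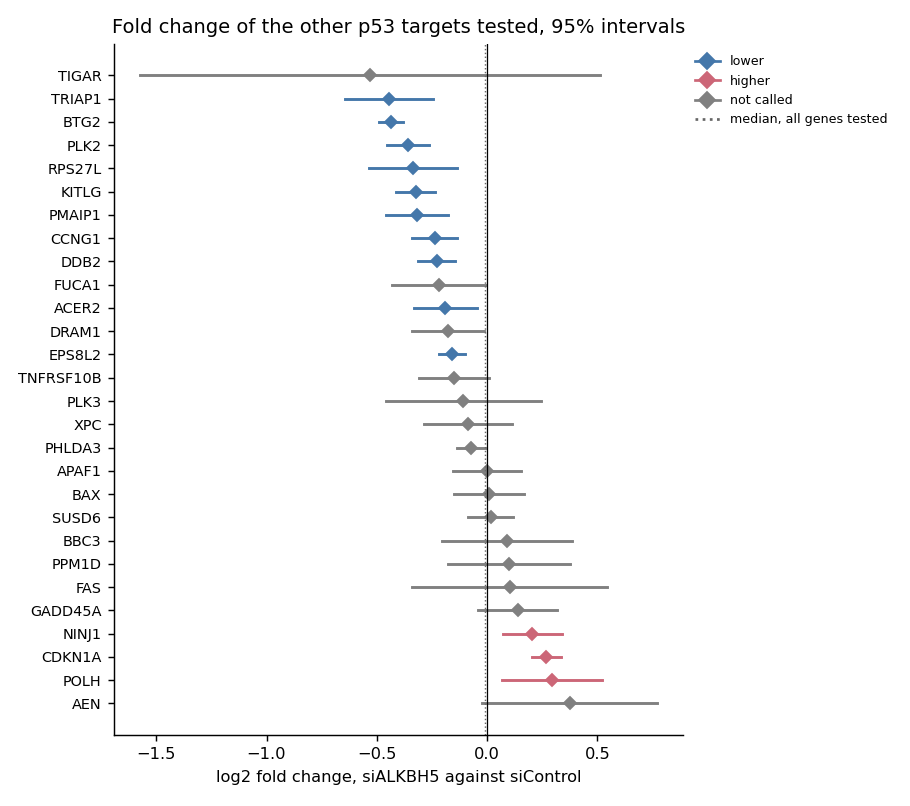
log2 fold change of siALKBH5 against siControl (horizontal axis) with its 95% interval from edgeR for the 28 further p53 targets tested, blue for genes called lower, red for genes called higher and grey for the rest. The 10 lower genes include BTG2 and TRIAP1, and the 3 higher genes are CDKN1A, POLH and NINJ1.

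Of 17 regulators of p53 and related factors, all were tested, and 7 were higher and 4 lower (41.2% and 23.5%, beside 19.3% and 17.3% of all genes tested). TP73, the p53 family member p73, was counted 129 and 126 times in siControl and 288 and 254 times in siALKBH5 and rose by 1.04 on the log2 scale (adjusted p of 5.0e-08 by edgeR). TP63, the family member that keratinocytes express most, fell by 0.091 on the log2 scale (adjusted p of 0.015 by edgeR). The checkpoint kinases CHEK1 (0.49) and CHEK2 (0.37) and the acetyltransferase EP300 (0.21) had higher log2 levels in siALKBH5. SIRT1, a deacetylase that acts on p53, fell by 0.69, RCHY1, another p53 ubiquitin ligase, fell by 0.63, and the damage kinase ATM fell by 0.16 on that scale. The calls of TP63 and ATM were lost in 3 and 4 of 10 alternative settings.

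SESN2 and GDF15 are also known targets of the integrated stress response, so genes of the ATF4 pathway were set beside them. Of 11 listed genes 10 were tested, and 5 were higher and 2 lower, where 19.3% and 17.3% of all genes tested were. The higher genes were SLC7A11, the cystine transporter (log2 fold change 0.76), TRIB3, a pseudokinase (0.61), PSAT1 and PHGDH of serine synthesis (0.46 and 0.092), and the transcription factor CEBPB (0.19). DDIT4, an mTORC1 inhibitor that p53 also induces, was lower (-0.39), as was DDIT3, the factor CHOP (-0.36). ATF4 itself had 204.3 ± 2.03 CPM (SD, n = 2) in siControl and 205.1 ± 0.78 CPM in siALKBH5, with a 95% interval of the log2 fold change from -0.06 to 0.070.

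The promoters of the 9 genes were searched for the p53 response element, since a shared element is what these genes have in common by background knowledge. The RefSeq windows on GRCh38.p14 run from 250 bases before to 50 bases after each annotated start, and 14 windows of 7 of the genes were read. Both strands need no separate search, as the element is its own reverse complement. A match was 20 bases made of 2 adjacent p53 half-sites with at most 3 mismatches to the p53 half-site consensus, with the C and G of the CNNG core kept in both. Of all windows 1.12% held a match (392 of 35116), and of all genes 1.37% did (373 of 27305). Matches were found in 4 of these 7 genes: MDM2, SESN1, FDXR and GDF15. They are printed in the direction of the gene, with the core of each half-site in capitals.
MDM2: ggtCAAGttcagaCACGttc
SESN1: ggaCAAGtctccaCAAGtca
FDXR: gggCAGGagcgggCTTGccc
GDF15: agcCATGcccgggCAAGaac

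The MDM2 element, at chr12:68808923-68808942 on the plus strand, has 2 mismatches and starts 94 bases before a RefSeq start. It lies in an intron of 7 of the 34 MDM2 transcripts of GENCODE 29 and outside the others. The SESN1 element, at chr6:109009018-109009037 on the minus strand, lies in an intron of 2 of 7 transcripts and outside the rest. The FDXR element, at chr17:74872996-74873015 on the minus strand, falls in the 5'UTR of 3 of 20 transcripts, across an exon edge in 2, and outside the others. The GDF15 element, at chr19:18386186-18386205 on the plus strand, starts 29 bases after the start and lies in a coding exon of 3 of 5 transcripts. These 3 have 3 mismatches each. TP53I3, SESN2 and ZMAT3 hold no match by these letters in these windows, and TP53INP1 and RRM2B were not searched. Of the 4 genes with a match MDM2 alone was called lower, and TP53I3 and ZMAT3, called lower, have none in these windows.

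The same letters, GGACN with any base but G at N, were also counted in the 3'UTRs of the other genes. MDM2 holds 14 in 10837 bases, TP53INP1 holds 7 in 4773, and ZMAT3 holds 13 in 7794, which are 1.29, 1.47 and 1.67 per kilobase beside 2.42 per kilobase over all genes. SESN1 (2.71), SESN2 (5.33), GDF15 (4.15) and FDXR (9.38), which were not called, had more per kilobase than these 3, and RRM2B had 1.38. By number, SESN1 holds 3 in 1107 bases, SESN2 9 in 1689, GDF15 1 in 241, FDXR 3 in 320 and RRM2B 5 in 3631. The densities of GDF15 and FDXR thus rest on few matches, and a relation of these letters to the calls was not tested. TP53I3, with 6.85 per kilobase, rests on its single match in 146 bases.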

How the data were processed

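RNA-seq of 4 HaCaT libraries was analysed, with 2 siControl and 2 siALKBH5 libraries grouped by the sample labels. The authors deposited raw counts per gene, made from poly-A RNA, and FPKM, in 1 table per replicate. Their processing notes name CASAVA, HISAT2 2.0.5, featureCounts 1.5.0-p3, DESeq2 1.20.0 and the build hg38. The strand setting is not given in the sources used here. The deposited FPKM, which were scaled separately in the tables, were not used, nor were the columns of log2 fold changes, p-values and adjusted p-values, which compare 1 library with 1. The number of unmapped columns of per-sample values was 0.

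Counts of all libraries were tested together in R 4.3.3 by edgeR 4.0.16 (filterByExpr, TMM with factors from 0.992 to 1.01, glmQLFit, glmQLFTest) with Benjamini-Hochberg adjustment, and called at an adjusted p under 0.05. The common biological coefficient of variation was 0.0253. With 2 libraries against 2, the smallest two-sided permutation p is 0.333. Standard errors and 95% intervals come from the same fit. Genes named are the 9 targets, ALKBH5, all paralogs and partners, CDKN1A, BBC3, BAX, PMAIP1 and FAS, and up to 5 called genes per direction with the greatest log2 fold change from each further list. One gene of the regulator list is not reported here. The genes and lists were chosen with earlier results of these data known. The steps were tested on simulated data. Replicate libraries differed beyond counting noise (chi-square per degree of freedom 1.74 in siControl and 1.85 in siALKBH5). Alternatives were DESeq2 1.42.0, its size factors within edgeR, no scaling beyond library size, all genes kept, only genes with 10 or more counts on average, a fold change of at least 2, a replicate block, and each library left out. Gene models are those of GENCODE 29.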

Additional observations from a re-analysis of the deposited data

How the results depend on the processing

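MDM2, TP53I3, TP53INP1 and ZMAT3 were called lower under all 10 alternatives without a fold minimum. A fold change of at least 2 left 0 of the 9 genes and 0 further p53 targets in either direction, and 244 higher and 196 lower genes in all. DESeq2 called 1444 genes lower against 2610 with edgeR, and 1 further target higher against 3. FDXR was called lower with library size only (-0.16, adjusted p of 0.029). The replicate numbers were the basis of a block. The correlation of replicate deviations between the groups was 0.0489 over 15075 genes. Counting noise lowers such a correlation, so it does not settle whether replicates shared more than a number. With the replicate block 5 of the 9 genes were lower, FDXR being added at -0.14 (adjusted p of 0.020), with 3091 genes higher and 2831 lower in all. With 1 library left out, the log2 fold change ran from -1.03 to -0.62 for TP53I3, from -0.32 to -0.048 for SESN1, from -0.24 to -0.047 for FDXR (-0.24, and called, without siALKBH5 replicate 1), from -0.14 to 0.38 for GDF15, from -0.071 to 0.12 for RRM2B and from -0.066 to 0.18 for SESN2. GDF15 and RRM2B (-0.014) changed sign without siALKBH5 replicate 1, RRM2B without siControl replicate 2 and SESN2 without siALKBH5 replicate 2, none of which was called. Further targets called higher ranged from 1 to 3, with 1 left without siControl replicate 2 and without siALKBH5 replicate 2. The cause of these changes was not tested. With a library left out, the lone library of its group is assumed to vary like the other group. Of the 9 genes GDF15 had the fewest counts and the widest interval.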
